A study of Homo sapiens with 15 samples.

Results

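The genes described are 38 factors, inhibitors, targets and cytokines of the NF-kB system, read by gene name from the 60675 rows of 1 deposited table of expected counts. All 38 names were found once. The cells were HT1080, an established human fibrosarcoma line, in 4 groups. The first was wild-type cells given 1 µM TMP195, an inhibitor of class IIa lysine deacetylases, for 2 days (3 libraries). In the others the cells' own KDAC7 (gene HDAC7) carried H709A (4 libraries), or their own KDAC4 (gene HDAC4) carried H803A (3 libraries with counts) or H976Y (4 libraries), with no treatment. The study calls its variants inactivated or enhanced, and its title names inactive KDAC4 and KDAC7. H976Y is taken here as the enhanced form, because a tyrosine in place of this histidine is known to raise the activity of class IIa enzymes. The labels do not say how the changes were made, whether a variant line is 1 clone, or whether the libraries of a group came from separate cultures, and the tests therefore gauge the spread among these libraries, which may be technical. Untreated wild-type cells were not analysed here, so treatment and wild-type genotype cannot be told apart in the TMP195 comparisons, and no value is a change from the parent line.

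NF-kB proteins are dimers of RELA, RELB, REL and the processed products of NFKB1 and NFKB2. IkB proteins hold them inactive until IKK kinases mark the IkB for degradation. A second, slower route depends on the kinase NIK, which the adaptor TRAF3 and the ubiquitin ligase BIRC2 keep low, and it converts the NFKB2 product p100 to p52, the usual partner of RELB. NF-kB dimers switch on their own inhibitors, among them NFKBIA, NFKBIE and TNFAIP3, together with chemokines, cytokines and adhesion molecules, and tumour cells of connective tissue can use the system to make cytokines such as IL6 and CXCL8. Class IIa deacetylases bind transcription factors and bring corepressors to DNA.

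Promoter sequence was looked at first, because dimers bind short kB motifs. Windows of 250 bases before to 50 bases after each RefSeq gene start (GRCh38.p14) were searched on both strands. A broad kB motif, GGG and CC parted by any 5 bases, was found for 30 of the 32 members with a window (93.8%) and for 61.7% of 27305 genes. The narrower GGAATTTCC, which lies inside a broad match where a further G stands before it, was found for 13 of the 32 members (40.6%) and for 0.56% of genes. No window was listed for CSF1, RELB, IER3, NFKBIE, CCL2 and LIF. A match is a description of the letters and not a binding site. The stretch before the start of NFKBIA, which encodes the main IkB, is shown whole, because this gene differed between groups in the counts. It runs over chr14:35404750-35404999 on the minus strand, with motif letters in capitals.

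NFKBIA: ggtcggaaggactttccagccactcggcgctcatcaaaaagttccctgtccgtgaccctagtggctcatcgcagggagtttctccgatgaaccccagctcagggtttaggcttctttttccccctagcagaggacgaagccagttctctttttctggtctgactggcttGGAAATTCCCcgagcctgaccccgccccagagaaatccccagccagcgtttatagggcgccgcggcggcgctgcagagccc

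The next stretches of 30 bases allow a comparison of genes that were called with chemokine genes that were not detected or not called, and capitals again mark the motif letters. NFKB2 (chr10:102394491-102394520, plus strand) and TNFAIP3 (chr6:137867188-137867217, plus strand) hold the broad motif, read on either strand. NFKBIZ (chr3:101827758-101827787, plus), ICAM1 (chr19:10270924-10270953, plus), CXCL8 (chr4:73740468-73740497, plus), CXCL1 (chr4:73869305-73869334, plus), CXCL2 (chr4:74099253-74099282, minus) and CXCL3 (chr4:74038748-74038777, minus) hold GGAATTTCC or, as GGAAATTCC, its reverse complement.
NFKB2: ggccgagaaGGGGCTTTCCCggccctgagc
TNFAIP3: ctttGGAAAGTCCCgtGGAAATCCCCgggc
NFKBIZ: ttttggtctGGGAATTTCCagtgtgcagaa
ICAM1: gctttagcttGGAAATTCCggagctgaagc
CXCL8: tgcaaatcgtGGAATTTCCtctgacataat
CXCL1: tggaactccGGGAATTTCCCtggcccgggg
CXCL2: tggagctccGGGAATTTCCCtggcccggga
CXCL3: tggagctccGGGAATTTCCCtggcccggcc

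The motif letters of CXCL1, CXCL2 and CXCL3 were the same, while their counts were not, as given below. GGAATTTCC stood in 3 of the 10 members with a window that were called in any comparison, and in 10 of the 22 that were not.

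Total counts ran from 6151383 to 24297487 per library, so that 1 CPM, the count per 1000000 of scaled library size, stood for 4.86 to 23.9 counts. The KDAC4 H976Y libraries stood apart in composition: mitochondrial ribosomal RNA made up at most 0.345% of the counts in every other library and 16.1% to 31.5% in KDAC4 H976Y. Mitochondrially encoded mRNA made up 2.38% to 14.7% in the others and 0.676% to 1.41% in KDAC4 H976Y, and small nucleolar RNA at most 0.101% in the others and 0.722% to 0.913% in KDAC4 H976Y. Genotype and this difference in composition cannot be told apart. Libraries of the other variants went against their labels. The difference between a pair of libraries was measured as the spread of their counts relative to Poisson sampling. The library labelled KDAC4 H803A replicate 1 differed from KDAC7 H709A replicate 4 by 2.14 times sampling noise, the smallest value of any pair, and from its own replicates 2 and 3 by 213 and 247 times. The library labelled KDAC7 H709A replicate 1 lay nearest to KDAC4 H803A replicate 3, at 33.0 times, and 155 to 287 times from its own group. The level of GC-rich less that of GC-poor genes (log2) was 0.33 to 0.50 in TMP195 libraries, 1.15, -0.46, -0.92 and -1.10 in KDAC7 H709A replicates 1 to 4 and -1.07, 1.34 and 1.27 in KDAC4 H803A replicates 1 to 3, against -0.49 to -0.28 in KDAC4 H976Y libraries. The libraries labelled KDAC7 H709A replicates 1 and 4 and KDAC4 H803A replicate 1 are named in results of called members that rest on them. Where a gene is given by group mean or range, as for genes outside the members, the part of these libraries is not shown. KDAC7 H709A replicate 4 lay 66.8 and 80.5 times from its own replicates 2 and 3. It lay 266.5 and 303.4 times from KDAC4 H803A replicates 2 and 3, and so resembled only KDAC4 H803A replicate 1 of that group. The 3 libraries set apart were picked by their expression, so leaving them out narrows the spread within groups by construction.

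Of the 38 members, 29 passed the filter on low counts and 9 did not. The highest levels, in CPM per kilobase of effective length averaged over groups, were those of the stress-induced gene IER3 (93.3), the cytokine receptor chain IL6ST (90.6), the A20-binding inhibitor TNIP1 (63.7), the survival gene BCL2L1 (56.4) and RELA (41.5). NFKB1 stood at 25.8 and NFKB2 at 20.5 on this per-length scale, RELB at 9.79 and REL at 1.90. Among cytokines CSF1 (37.2) and LIF (24.0) were well above CXCL8 (12.8), IL11 (8.29), CXCL3 (4.25), IL32 (3.17) and IL6 (2.69).

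The 9 members below the filter were mostly chemokines and adhesion genes. The neutrophil chemokines CXCL1 and CXCL2 had 0 counts in all 14 libraries, which allows up to 0.126 to 0.618 CPM in a library. CXCL5 and CXCL12, ligands of CXCR2 and CXCR4, had 1 count each over all libraries, both in TMP195-treated cells, and the adhesion molecule VCAM1 had 2 counts, both in KDAC7 H709A replicate 1. The monocyte chemokine CCL2 had 8 and 5 counts in KDAC7 H709A replicates 2 and 3 and 1 count in KDAC4 H976Y replicate 2. CCL20, the ligand of CCR6, had 0 to 15 counts, CSF2 (GM-CSF) 0 to 3, and the IKK-activating kinase MAP3K8 0 to 10, of which KDAC4 H976Y held 1 count in 4 libraries. CXCL1, CXCL2 and CXCL3 are near copies that can share reads, so the counts of each are uncertain.

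CXCL3, the detected member of that trio, had 3.87, 3.60 and 4.08 CPM with TMP195, 5.79, 1.21, 2.00 and 2.68 CPM in KDAC7 H709A, 2.15, 1.74 and 5.15 CPM in KDAC4 H803A and 1.41, 2.55, 2.38 and 2.47 CPM in KDAC4 H976Y cells. It was not called in any comparison, and its values in the variants overlapped.

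Each pair of groups was compared with edgeR's quasi-likelihood F test in 1 fit over 17780 genes, and a gene was called at a Benjamini-Hochberg adjusted p under 0.05 over all of them. In TMP195 against KDAC4 H976Y, 7 of 29 tested members were called, all higher, or 24.1% where 16.5% of all genes were called (7.96% higher and 8.55% lower). In KDAC4 H803A against KDAC4 H976Y it was 8 members, 7 higher and 1 lower, or 27.6% where 15.1% of all genes were called (9.21% higher and 5.85% lower). In KDAC7 H709A against KDAC4 H976Y it was 7, of which 6 were higher and 1 lower, or 24.1% against 12.5% of all genes (7.28% higher and 5.19% lower). These comparisons share the KDAC4 H976Y libraries and are not independent of each other. TMP195 against KDAC4 H803A gave 3 called members, 1 higher and 2 lower (10.3%, against 5.34% of all genes, 1.56% higher and 3.78% lower), and TMP195 against KDAC7 H709A gave 1 higher and 1 lower (6.9%, against 6.29%, 1.99% higher and 4.31% lower), a share near that of all genes. KDAC7 H709A against KDAC4 H803A gave 0 called members and 0% of all genes; at an unadjusted p under 0.05 there were 0 members and 1118 genes, and DESeq2 called 0 members and 92 genes. In all, 13 members were called in at least 1 comparison and 16 in none.

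The median log2 fold change of the tested members was 0.34 in TMP195, 0.40 in KDAC7 H709A and 0.52 in KDAC4 H803A against KDAC4 H976Y, beside 0.03, 0.09 and 0.09 over all genes. It was -0.10 in TMP195 against KDAC4 H803A and -0.07 in TMP195 against KDAC7 H709A, beside -0.11 and -0.07 over all genes, and -0.10 in KDAC7 H709A against KDAC4 H803A, beside 0.02.

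By the weaker measure that no library of 1 group reaches into the range of the other, 14 tested members were higher and 4 lower in TMP195 than in KDAC4 H976Y, where 53.8% of all genes did not overlap (27.2% higher and 26.6% lower). In KDAC7 H709A against KDAC4 H976Y 7 were higher and 1 lower (20.1% of all genes, 11.2% and 8.95%), and in KDAC4 H803A against KDAC4 H976Y 10 and 1 (23.1% of all genes, 12.1% and 11%). In TMP195 against KDAC4 H803A 3 were higher and 5 lower (24.3% of all genes, 12.8% and 11.4%), and in TMP195 against KDAC7 H709A 5 and 2 (24.3% of all genes, 12.4% and 11.8%). In KDAC7 H709A against KDAC4 H803A 0 members were apart (2.01% of all genes, 1.12% and 0.889%).

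The counts of calls, among members and among all genes, rested on single libraries. Without the library labelled KDAC4 H803A replicate 1, 16 members were called in KDAC4 H803A against KDAC4 H976Y (45.3% of all genes) and 8 in KDAC7 H709A against KDAC4 H803A (25.7% of all genes), of 31 tested. The same fit gave 9 members in TMP195 and 8 in KDAC7 H709A against KDAC4 H976Y (27.3% and 18.5% of all genes), and 6 and 4 in TMP195 against KDAC4 H803A and KDAC7 H709A (14.5% and 14.6%). Without KDAC4 H803A replicate 2 or 3 the first of these counts was 5 and 4, and without KDAC4 H976Y replicate 1 or 2 it was 5. The count for TMP195 against KDAC4 H976Y was 3 without any 1 TMP195 library or without KDAC4 H976Y replicate 1, 2 or 4, and 4 without replicate 3. For TMP195 against KDAC4 H803A it was 6, 1 and 0 without KDAC4 H803A replicate 1, 2 and 3 and 1 without any 1 TMP195 library. In TMP195 against KDAC7 H709A it was 4 without KDAC4 H803A replicate 1 or KDAC7 H709A replicate 1, 1 without KDAC7 H709A replicate 2 or 3, and 0 without any 1 TMP195 library. Leaving out 1 library, all genes called ran from 1129 to 8431 in KDAC4 H803A and from 1307 to 5079 in TMP195 against KDAC4 H976Y. They ran from 436 to 2695 in TMP195 against KDAC4 H803A and from 422 to 2755 in TMP195 against KDAC7 H709A. The swings were therefore not confined to the members. With the 3 libraries set apart all left out, calls against KDAC4 H976Y were 18, 15 and 24 members in TMP195, KDAC7 H709A and KDAC4 H803A. Of all genes 53.9%, 31.8% and 64.5% were called in these comparisons. The same fit called 17 in TMP195 against KDAC4 H803A, 13 in TMP195 against KDAC7 H709A and 20 in KDAC7 H709A against KDAC4 H803A, beside 47.9%, 45.7% and 60.2% of all genes.

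**Figure D1:**
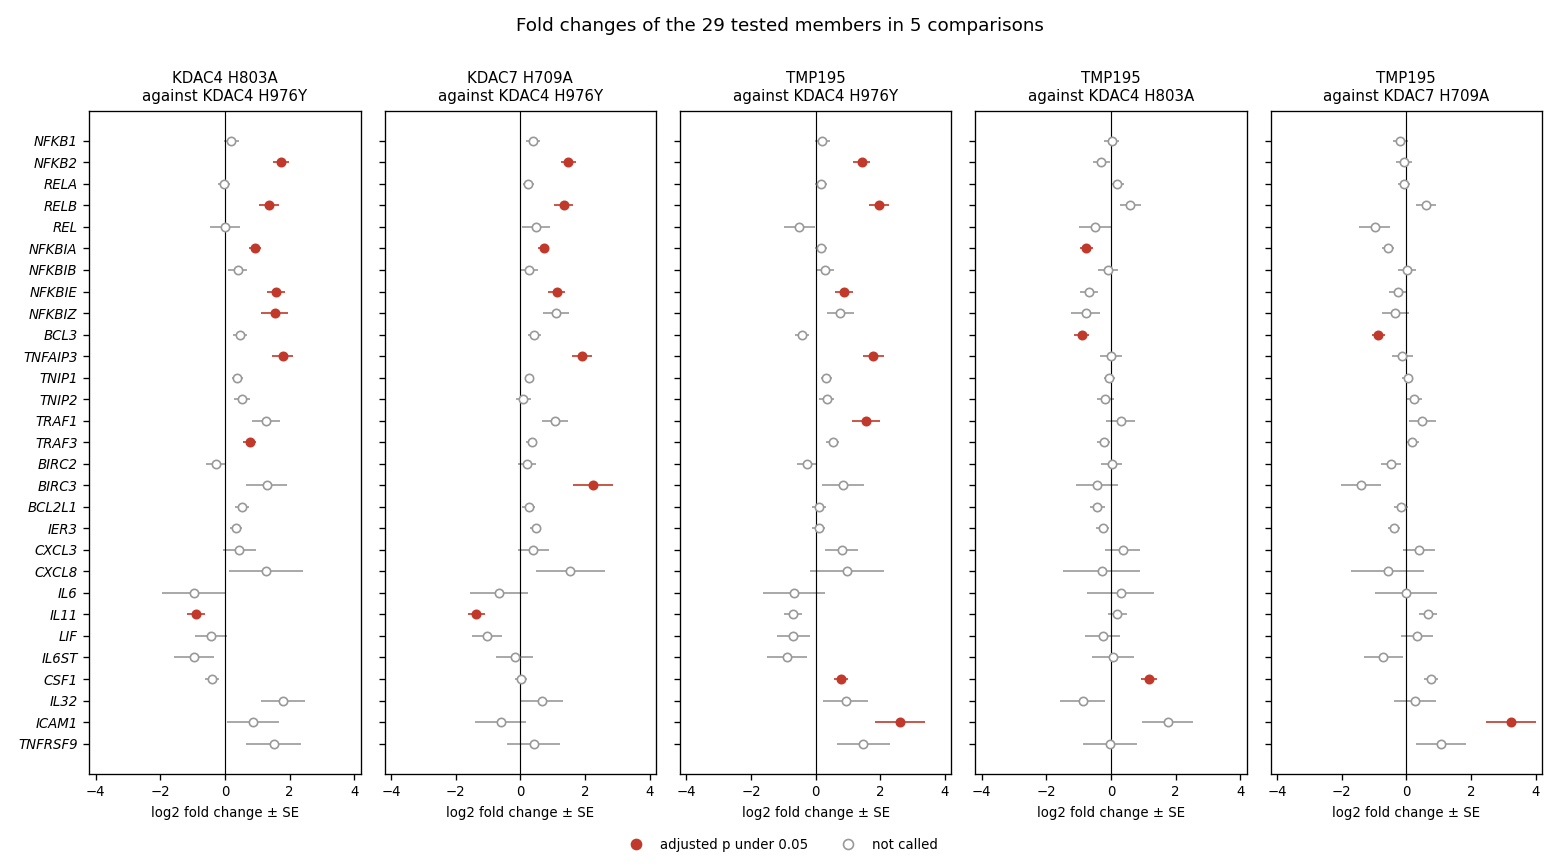
Log2 fold changes of the 29 tested members (rows, by role) in 5 comparisons (panels), first group over second, with bars of 1 SE; filled points passed an adjusted p of 0.05. In the first 3 panels NFKB2, RELB, NFKBIE and TNFAIP3 lie right of 0 and are filled each time, whereas NFKB1, RELA and REL are open in every panel.

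The subunit genes of the slower NF-kB route were lower in KDAC4 H976Y cells than in each of the other groups. NFKB2 (ENSG00000077150, chromosome 10, 102394110 to 102402529), which encodes p100, had 55.6, 58.3 and 58.3 CPM with TMP195. It had 84.3, 61.3, 47.5 and 47.5 CPM in KDAC7 H709A, 46.2, 85.8 and 80.6 CPM in KDAC4 H803A, and 23.9, 22.1, 21.7 and 17.7 CPM in KDAC4 H976Y cells. All 10 other libraries lay above the 4 of KDAC4 H976Y. The log2 fold change over KDAC4 H976Y was 1.42 ± 0.25 (SE) for TMP195 (edgeR adjusted p = 0.00217), 1.49 ± 0.23 for KDAC7 H709A (adjusted p = 0.00143) and 1.73 ± 0.25 for KDAC4 H803A (adjusted p = 0.00099). NFKB2 was called in these 3 comparisons under every one of the 24 alternatives, with adjusted p of at most 0.0173, 0.00803 and 0.014. The 100 tested genes within 5 Mb of it had medians of 0.21, 0.01 and 0.24.

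RELB (ENSG00000104856, chromosome 19, 45001430 to 45038198), the partner of p52, had 20.4, 22.3 and 23.7 CPM with TMP195, 17.5, 15.01, 16.1 and 9.01 CPM in KDAC7 H709A, 7.16, 17.6 and 19.2 CPM in KDAC4 H803A and 6.62, 5.21, 4.98 and 5.97 CPM in KDAC4 H976Y cells. KDAC4 H976Y was again lowest with no overlap, and KDAC4 H803A replicate 1 and then KDAC7 H709A replicate 4 came next. RELB rose by 1.96 ± 0.32 (log2) in TMP195 (edgeR adjusted p = 0.00141) and by 1.34 ± 0.30 in KDAC7 H709A (adjusted p = 0.0112) over KDAC4 H976Y, both called under all 24 alternatives. For KDAC4 H803A the log2 fold change was 1.36 ± 0.32 (adjusted p = 0.0142; 1.28e-06 to 0.2 over the 24 alternatives). This call was kept under 18 alternatives. Among its losses were the fits with KDAC4 H803A replicate 2 or 3 left out (edgeR adjusted p = 0.0601 and 0.0708) and a fit of the 2 groups (adjusted p = 0.0538). RELB was also not called with offsets for GC content and length (adjusted p = 0.105), and RELB transcripts hold 64.5% GC.

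The subunits of the faster route showed no called difference. NFKB1, the p105 and p50 gene, averaged 63.5 ± 6.68 CPM (SD, n = 3) with TMP195, 72.3 ± 13.9 CPM (n = 4) in KDAC7 H709A, 62.7 ± 17.1 CPM (n = 3) in KDAC4 H803A and 54.7 ± 9.91 CPM (n = 4) in KDAC4 H976Y cells. RELA, the main activating subunit, averaged 67.3 ± 5.79, 71.1 ± 4.74, 58.8 ± 14.3 and 60.2 ± 8.78 CPM in the same groups. REL, another activating subunit, had 9.84, 6.84 and 7.29 CPM with TMP195, 7.63, 18.1, 18.2 and 19.2 CPM in KDAC7 H709A, 21.7, 5.81 and 5.92 CPM in KDAC4 H803A and 13.5, 10.1, 7.25 and 14.4 CPM in KDAC4 H976Y cells. Within KDAC7 H709A replicate 1 was low and within KDAC4 H803A replicate 1 was high.

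**Figure D2:**
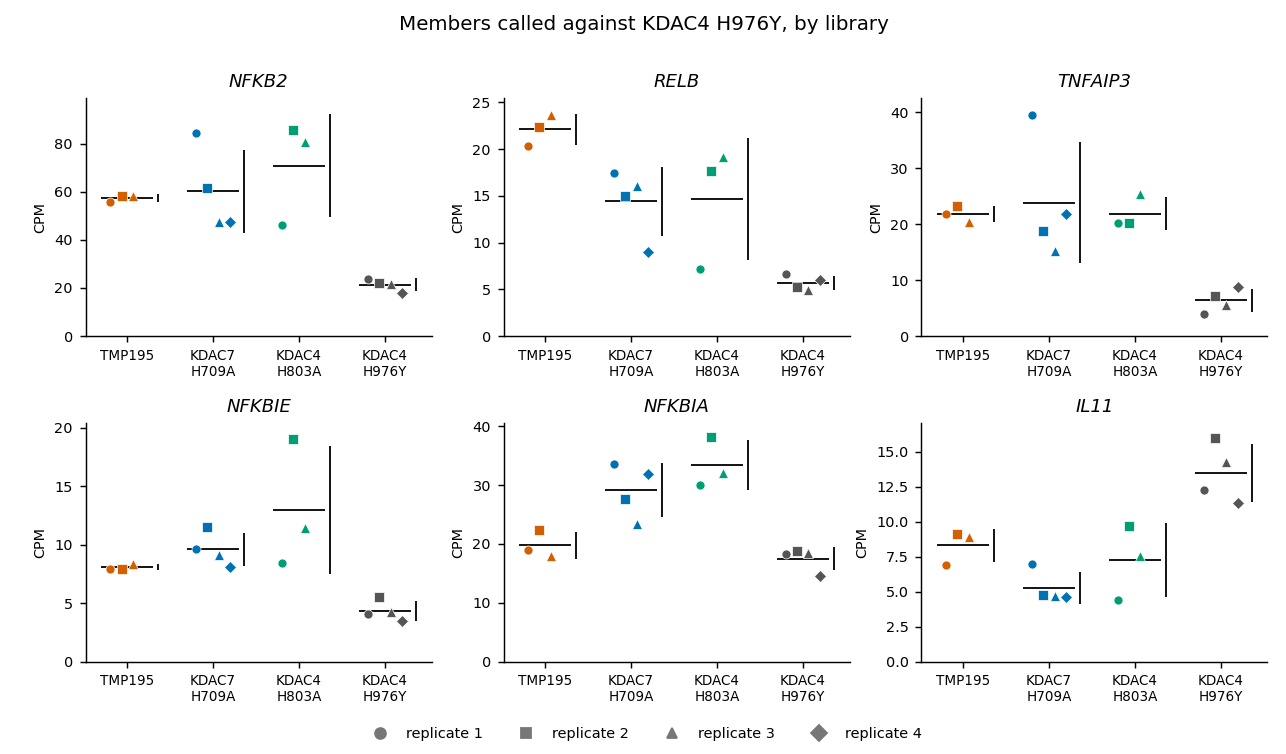
CPM of 6 called members (panels) in the 4 groups, 1 point per library with the shape giving the replicate number; horizontal lines are group means and vertical bars 1 SD each way, n = 3 or 4. NFKB2, RELB and TNFAIP3 are lowest in all 4 KDAC4 H976Y libraries, and IL11 is highest there.

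Of the 5 IkB family genes, NFKBIA and NFKBIE were called higher in both KDAC7 H709A and KDAC4 H803A than in KDAC4 H976Y cells, NFKBIZ was called in KDAC4 H803A (in KDAC7 H709A its edgeR adjusted p was 0.0899), and BCL3 and NFKBIB were called in neither. NFKBIA (ENSG00000100906, chromosome 14, 35401511 to 35404749), whose promoter is printed above, had 19.0, 22.3 and 17.9 CPM with TMP195, 33.7, 27.6, 23.3 and 31.9 CPM in KDAC7 H709A, 30.02, 38.2 and 32.0 CPM in KDAC4 H803A and 18.3, 18.7, 18.4 and 14.6 CPM in KDAC4 H976Y cells. TMP195 and KDAC4 H976Y libraries overlapped, and all 7 libraries of the other variants lay above both. Over KDAC4 H976Y the log2 fold change was 0.73 ± 0.17 for KDAC7 H709A (edgeR adjusted p = 0.0139; 0.00114 to 0.055 over the alternatives, the last with no filter on low counts) and 0.93 ± 0.18 for KDAC4 H803A (adjusted p = 0.00564, called under all 24 alternatives). In TMP195 against KDAC4 H803A it was -0.76 ± 0.20 (adjusted p = 0.0398; 0.000894 to 0.204 over the alternatives). The last call was kept under 11 of 24 alternatives. It ended without any 1 TMP195 library (adjusted p = 0.175, 0.0915 and 0.181), without KDAC4 H803A replicate 2 or 3 (0.138 and 0.0778), without KDAC4 H976Y replicate 1, 2 or 3 (0.0574, 0.0552 and 0.0551) and without KDAC7 H709A replicate 2 (0.0573). It also ended in a fit of those 2 groups only (0.147) and with no filter (0.204).

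NFKBIE (ENSG00000146232, chromosome 6, 44258166 to 44265788), which encodes IkB-epsilon, had 7.94, 7.88 and 8.36 CPM with TMP195, 9.65, 11.5, 9.14 and 8.09 CPM in KDAC7 H709A, 8.42, 19.0 and 11.4 CPM in KDAC4 H803A and 4.08, 5.53, 4.22 and 3.50 CPM in KDAC4 H976Y cells. No library of another group overlapped KDAC4 H976Y. NFKBIE rose by 1.13 ± 0.26 (log2) in KDAC7 H709A (edgeR adjusted p = 0.013, called under all 24 alternatives) and by 1.57 ± 0.28 in KDAC4 H803A (adjusted p = 0.00328, called under 23). In TMP195 the log2 fold change was 0.89 ± 0.28 (adjusted p = 0.0449; 0.00254 to 0.258 over the alternatives) and was called under 9. It was lost without any 1 TMP195 library (0.113, 0.113 and 0.131), without any 1 KDAC4 H976Y library (0.11, 0.0529, 0.108 and 0.084), without KDAC4 H803A replicate 3 (0.0545) and without KDAC7 H709A replicate 2, 3 or 4 (0.055, 0.0566 and 0.0513). With GC and length offsets the adjusted p was 0.18, and with no filter 0.0999. The 80 tested genes within 5 Mb had medians of 0.30, 0.28 and 0.43 in TMP195, KDAC7 H709A and KDAC4 H803A against KDAC4 H976Y.

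NFKBIZ (ENSG00000144802, chromosome 3, 101827991 to 101861022), a nuclear IkB that takes part in activating secondary targets such as IL6, had 30.9, 33.5 and 44.3 CPM with TMP195, 90.1, 29.8, 30.3 and 33.5 CPM in KDAC7 H709A, 34.1, 63.2 and 88.8 CPM in KDAC4 H803A and 17.0, 20.4, 16.7 and 31.7 CPM in KDAC4 H976Y cells. KDAC7 H709A replicate 1 was near KDAC4 H803A replicate 3, and KDAC4 H803A replicate 1 was near the other KDAC7 H709A libraries. The called difference was KDAC4 H803A over KDAC4 H976Y, 1.54 ± 0.42 (log2; edgeR adjusted p = 0.0293, 9.59e-06 to 0.136 over the alternatives). It ended without KDAC4 H803A replicate 2 or 3 (0.0777 and 0.136) and without KDAC4 H976Y replicate 1, 2 or 3 (0.0829, 0.0772 and 0.0872).

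BCL3 (ENSG00000069399, chromosome 19, 44747705 to 44760044), another nuclear IkB, which binds p50 and p52 dimers, was low with TMP195, at 7.56, 7.999 and 6.69 CPM. It had 17.6, 12.1, 12.5 and 11.8 CPM in KDAC7 H709A, 11.7, 14.8 and 15.1 CPM in KDAC4 H803A and 10.98, 10.96, 8.12 and 9.89 CPM in KDAC4 H976Y cells. The TMP195 libraries lay below every other library. BCL3 fell by 0.86 ± 0.21 on the log2 scale against KDAC7 H709A (edgeR adjusted p = 0.0318; 0.00358 to 0.192 over the alternatives) and by 0.90 ± 0.23 against KDAC4 H803A (adjusted p = 0.0348; 0.000464 to 0.431). Each call was kept under 14 alternatives. The first ended without any 1 TMP195 library (0.116, 0.0981 and 0.145), without KDAC7 H709A replicate 2 or 3 (0.0507 and 0.0506), in a fit of the 2 groups (0.0706) and with no filter (0.106). The second ended without any 1 TMP195 library (0.126, 0.104 and 0.153), without KDAC4 H803A replicate 2 or 3 (0.1 and 0.0966), in a fit of the 2 groups (0.134) and with no filter (0.159). Offsets for GC content and length gave adjusted p of 0.0774 and 0.276, and BCL3 transcripts hold 65.4% GC, more than any other tested member. NFKBIB, the gene of IkB-beta, was not called and averaged 12.7 ± 2.16, 12.5 ± 2.54, 13.6 ± 5.51 and 10.3 ± 1.22 CPM in TMP195, KDAC7 H709A, KDAC4 H803A and KDAC4 H976Y cells.

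TNFAIP3 (ENSG00000118503, chromosome 6, 137867188 to 137883312) encodes the ubiquitin-editing enzyme A20, a feedback brake on IKK activation. It had 21.9, 23.3 and 20.5 CPM with TMP195, 39.6, 18.7, 15.2 and 21.8 CPM in KDAC7 H709A, 20.2, 20.2 and 25.3 CPM in KDAC4 H803A and 3.94, 7.13, 5.63 and 8.86 CPM in KDAC4 H976Y cells. The KDAC4 H976Y libraries were lowest with no overlap, and KDAC7 H709A replicate 1 was highest. The log2 fold change over KDAC4 H976Y was 1.78 ± 0.32 for TMP195 (edgeR adjusted p = 0.00286), 1.90 ± 0.31 for KDAC7 H709A (adjusted p = 0.00173) and 1.78 ± 0.32 for KDAC4 H803A (adjusted p = 0.00375). These calls held under all 24 alternatives, with adjusted p of at most 0.0176, 0.013 and 0.0207. The 36 tested neighbours within 5 Mb had medians of -0.08, 0.34 and -0.30. The A20 partners TNIP1 and TNIP2 were not called. TNIP1 averaged 107 ± 6.82, 104 ± 16.4, 111 ± 15.4 and 85.4 ± 7.13 CPM, and TNIP2 45.5 ± 1.44, 38.4 ± 9.47, 51.5 ± 16.0 and 35.97 ± 5.98 CPM, in TMP195, KDAC7 H709A, KDAC4 H803A and KDAC4 H976Y cells.

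TRAF1 (ENSG00000056558, chromosome 9, 120902393 to 120929173), an adaptor that NF-kB induces, had 6.60, 7.08 and 8.83 CPM with TMP195, 6.18, 6.51, 5.88 and 2.73 CPM in KDAC7 H709A, 3.04, 9.01 and 6.25 CPM in KDAC4 H803A and 1.97, 2.23, 4.11 and 1.65 CPM in KDAC4 H976Y cells. TMP195 and KDAC4 H976Y did not overlap, whereas the libraries labelled KDAC7 H709A replicate 4 and KDAC4 H803A replicate 1 lay in the KDAC4 H976Y range, below the others of their groups. TRAF1 was called in 1 comparison, TMP195 over KDAC4 H976Y (log2 fold change 1.57 ± 0.43, edgeR adjusted p = 0.0246; 0.000424 to 0.0944 over the alternatives). The call was lost without any 1 TMP195 library (0.0586, 0.0661 and 0.0944) and without KDAC4 H976Y replicate 1, 2 or 4 (0.0741, 0.0703 and 0.0533). Leaving out the 3 libraries set apart narrows the spread by construction. Over KDAC4 H976Y that fit called 31.8% of all genes in KDAC7 H709A and 64.5% in KDAC4 H803A. There TRAF1 was also called, in KDAC7 H709A (1.26 ± 0.31, edgeR adjusted p = 0.00677) and in KDAC4 H803A (1.55 ± 0.31, adjusted p = 0.000577). Its 60 tested neighbours within 5 Mb had a median of 0.39.

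TRAF3 (ENSG00000131323, chromosome 14, 102777476 to 102911500), which holds NIK low, had 81.2, 84.3 and 82.5 CPM with TMP195, 79.4, 73.5, 72.2 and 66.5 CPM in KDAC7 H709A, 64.7, 120.3 and 106.8 CPM in KDAC4 H803A and 55.3, 52.7, 54.6 and 66.5 CPM in KDAC4 H976Y cells. KDAC4 H803A replicate 1 fell within the range of KDAC4 H976Y. The log2 fold change of KDAC4 H803A over KDAC4 H976Y was 0.76 ± 0.20 (edgeR adjusted p = 0.0209; 8.08e-06 to 0.104 over the alternatives), and the 86 tested neighbours had a median of 0.56. That call ended without KDAC4 H803A replicate 2 or 3 (0.104 and 0.0823), without KDAC4 H976Y replicate 1, 2 or 3 (0.0609, 0.067 and 0.0634), in a fit of the 2 groups (0.0884) and with no filter (0.0559).

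BIRC3 (ENSG00000023445, chromosome 11, 102317450 to 102339403), the inducible ubiquitin ligase cIAP2, had 2.60, 1.95 and 2.34 CPM with TMP195, 1.16, 6.77, 9.58 and 6.79 CPM in KDAC7 H709A, 5.64, 1.45 and 2.19 CPM in KDAC4 H803A and 2.11, 0.745, 0.866 and 1.44 CPM in KDAC4 H976Y cells. KDAC7 H709A replicate 1 lay inside the KDAC4 H976Y range, and the other 3 libraries of that group lay above every TMP195, KDAC4 H803A and KDAC4 H976Y library. BIRC3 was called for KDAC7 H709A over KDAC4 H976Y (log2 fold change 2.25 ± 0.61, edgeR adjusted p = 0.0285; 7.81e-05 to 0.101 over the alternatives). The call ended without KDAC4 H976Y replicate 2, 3 or 4 (0.101, 0.0987 and 0.0522) or KDAC7 H709A replicate 2, 3 or 4 (0.0583, 0.0693 and 0.0552). The fit without the 3 libraries set apart is narrowed in spread by construction. For KDAC7 H709A it called 31.8% of all genes against KDAC4 H976Y and 60.2% against KDAC4 H803A. BIRC3 there was 2.72 ± 0.36 and 2.19 ± 0.41 (log2), the second with an edgeR adjusted p of 0.000467 and not called with all libraries. Its neighbour BIRC2, the constitutive cIAP1 gene, was not called and averaged 40.0 ± 3.02, 55.1 ± 18.1, 39.4 ± 18.9 and 47.8 ± 3.78 CPM in TMP195, KDAC7 H709A, KDAC4 H803A and KDAC4 H976Y cells. The survival gene BCL2L1 (77.4 to 146 CPM over all libraries) and IER3 (71.9 to 151 CPM) were not called either.

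Among cytokines of the IL6 family, IL11 was highest in KDAC4 H976Y cells. IL11 (ENSG00000095752, chromosome 19, 55364389 to 55370463) had 6.92, 9.10 and 8.89 CPM with TMP195, 6.95, 4.77, 4.69 and 4.61 CPM in KDAC7 H709A, 4.43, 9.69 and 7.57 CPM in KDAC4 H803A and 12.2, 16.0, 14.3 and 11.3 CPM in KDAC4 H976Y cells. No library of another group reached the lowest of KDAC4 H976Y. TMP195 against KDAC4 H976Y was not called (log2 fold change -0.70 ± 0.28, edgeR adjusted p = 0.102), and 53.8% of all genes did not overlap there. IL11 fell by 1.36 ± 0.26 on the log2 scale in KDAC7 H709A (edgeR adjusted p = 0.00453, called under all 24 alternatives). In KDAC4 H803A it fell by 0.90 ± 0.28 (adjusted p = 0.0479; 0.00217 to 0.115 over the alternatives), a call kept under 8 alternatives. That call ended without KDAC4 H803A replicate 1 or 3 (0.0544 and 0.115), KDAC4 H976Y replicate 1, 2 or 3 (0.0764, 0.114 and 0.101), KDAC7 H709A replicate 2, 3 or 4 (0.0617, 0.0564 and 0.0547), or any 1 TMP195 library (0.0622, 0.0658 and 0.0656). It also ended with no filter (0.106), a stricter filter (0.0619), RLE scaling (0.0573) and a fit of the 2 groups (0.109).

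The other cytokines of this family were not called. LIF had 52.3, 53.7 and 61.1 CPM with TMP195 and ran from 17.4 to 99.99 CPM in KDAC7 H709A, from 31.2 to 88.8 CPM in KDAC4 H803A and from 82.5 to 106 CPM in KDAC4 H976Y cells. IL6, the founding member, had 1.65, 1.65 and 1.20 CPM with TMP195, 2.32, 0.694, 0.376 and 2.64 CPM in KDAC7 H709A, 3.29, 0.194 and 0 CPM in KDAC4 H803A and 2.53, 1.60, 3.36 and 2.06 CPM in KDAC4 H976Y cells. IL6ST encodes gp130, the signalling chain that IL6, IL11 and LIF receptors share. It had 168, 156 and 149 CPM with TMP195, 72.9, 250.2, 355 and 352 CPM in KDAC7 H709A, 344, 55.3 and 55.9 CPM in KDAC4 H803A and 307, 319, 329.6 and 214 CPM in KDAC4 H976Y cells. IL6ST in KDAC4 H803A replicate 1 was at the level of KDAC7 H709A replicates 3 and 4, and in KDAC7 H709A replicate 1 it was nearer to KDAC4 H803A replicates 2 and 3.

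CSF1, ICAM1 and RELB were higher, and BCL3 lower, in every TMP195 library than in every variant library. The share of all genes apart from every variant in this way was not computed. Against KDAC4 H803A, KDAC7 H709A and KDAC4 H976Y alone, 24.3%, 24.3% and 53.8% of all genes did not overlap. RELB and ICAM1 were not called against KDAC4 H803A (edgeR adjusted p = 0.374 and 0.252). Nor were RELB and CSF1 against KDAC7 H709A, or BCL3 against KDAC4 H976Y (adjusted p = 0.179). CSF1 (ENSG00000184371, chromosome 1, 109910242 to 109930992), the macrophage growth factor, had 158, 156 and 150.5 CPM with TMP195. It had 67.0, 129, 87.6 and 80.5 CPM in KDAC7 H709A, 84.2, 68.7 and 52.5 CPM in KDAC4 H803A and 95.3, 93.4, 88.5 and 83.4 CPM in KDAC4 H976Y cells. Every TMP195 library lay above every variant library. CSF1 rose by 1.17 ± 0.24 (log2) over KDAC4 H803A (edgeR adjusted p = 0.0104; 3.79e-05 to 0.183 over the alternatives) and by 0.78 ± 0.22 over KDAC4 H976Y (adjusted p = 0.0278; 3.92e-05 to 0.403). The first call was kept under 20 alternatives and ended without KDAC4 H803A replicate 3 (0.0692), in a fit of the 2 groups (0.0668) and with GC and length offsets (0.0944). The second was kept under 13 and ended without any 1 TMP195 library (0.0972, 0.0947 and 0.084), without any 1 KDAC4 H976Y library (0.0744, 0.0777, 0.0881 and 0.067), with the offsets (0.286) and with no filter (0.0692). The 86 tested neighbours within 5 Mb had medians of -0.04 and -0.36.

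ICAM1 (ENSG00000090339, chromosome 19, 10270835 to 10286615), an adhesion molecule that binds leukocyte integrins, was scarce: 41, 61 and 36 counts with TMP195, 4, 1, 0 and 16 in KDAC7 H709A, 9, 14 and 6 in KDAC4 H803A and 5, 3, 4 and 2 in KDAC4 H976Y libraries. This equalled 2.60, 3.72 and 2.41 CPM with TMP195, 0.386, 0.0868, 0 and 0.671 CPM in KDAC7 H709A, 0.570, 1.36 and 0.658 CPM in KDAC4 H803A and 0.704, 0.319, 0.433 and 0.412 CPM in KDAC4 H976Y cells. The TMP195 libraries were highest with no overlap. ICAM1 rose by 3.24 ± 0.76 (log2) over KDAC7 H709A (edgeR adjusted p = 0.023; 5.76e-05 to 0.107 over the alternatives) and by 2.62 ± 0.77 over KDAC4 H976Y (adjusted p = 0.0343; 0.000253 to 0.119). The first, kept under 18 alternatives, was lost without KDAC7 H709A replicate 2 (0.0618), without any 1 TMP195 library (0.0743, 0.107 and 0.0655) and in a fit of the 2 groups (0.0725). Its size depended on the libraries: it was 4.25 ± 0.82 without KDAC7 H709A replicate 4. It was 5.93 ± 0.77 without the 3 libraries set apart, which leaves 2 KDAC7 H709A libraries with 1 and 0 counts. The second, kept under 16, was lost without any 1 TMP195 library (0.0835, 0.119 and 0.0787) or any 1 KDAC4 H976Y library (0.0654, 0.102, 0.095 and 0.0645). Among low-count members, IL32, a cytokine of lymphoid and epithelial cells, and TNFRSF9, the costimulatory receptor 4-1BB, were not called. IL32 averaged 1.66 ± 0.0127, 1.37 ± 0.723, 3.05 ± 2.98 and 0.858 ± 0.214 CPM, and TNFRSF9 1.47 ± 0.171, 0.705 ± 0.608, 1.51 ± 1.034 and 0.543 ± 0.344 CPM, in TMP195, KDAC7 H709A, KDAC4 H803A and KDAC4 H976Y cells.

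**Figure D3:**
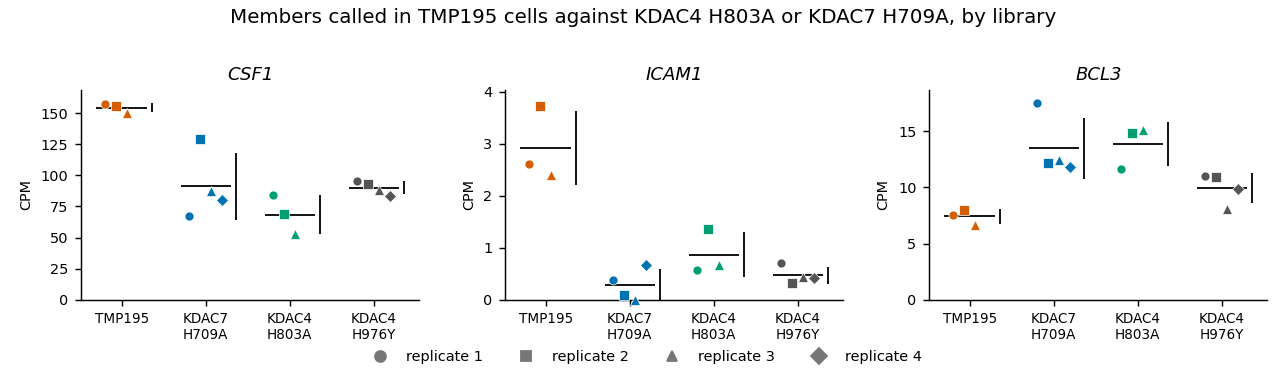
CPM of CSF1, ICAM1 and BCL3 in the 4 groups, 1 point per library with the shape giving the replicate number; horizontal lines are group means and vertical bars 1 SD each way, drawn down to 0 at most. All 3 TMP195 libraries lie above the variants for CSF1 and ICAM1 and below them for BCL3.

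Some members differed more between libraries of 1 variant than between variants. CXCL8, the interleukin-8 chemokine, had 12.3, 11.7 and 14.5 CPM with TMP195, 19.8, 4.69, 5.07 and 46.4 CPM in KDAC7 H709A, 45.4, 0.484 and 0.658 CPM in KDAC4 H803A and 7.74, 5.42, 8.12 and 4.53 CPM in KDAC4 H976Y cells. The high values in KDAC4 H803A replicate 1 and KDAC7 H709A replicate 4 were close to each other, and no comparison of CXCL8 was called. Between KDAC7 H709A replicate 4 and the library labelled KDAC4 H803A replicate 1, 0 of the 29 tested members differed by over 2-fold (log2 ratio of CPM + 0.5 at most 0.63). Between KDAC4 H803A replicate 1 and the mean of replicates 2 and 3, 13 members did, with CXCL8 5.42, IL6 2.67, IL6ST 2.62, REL 1.80 and BIRC3 1.40 (log2) higher in replicate 1. On the other side IL32 stood at -2.36, TNFRSF9 at -1.67, LIF at -1.42 and RELB at -1.30. Between KDAC7 H709A replicate 1 and replicates 2 and 3, 11 members differed by over 2-fold, with LIF at 2.23, CXCL8 at 1.92, CXCL3 at 1.58 and NFKBIZ at 1.57, and BIRC3 at -2.39 and IL6ST at -2.05. The share of all genes differing by over 2-fold was not computed. Over all tested genes the KDAC4 H803A pairs differed by 213 and 247 times sampling noise and the KDAC7 H709A pairs by 155 and 245 times. The split was therefore not confined to the members.

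**Figure D4:**
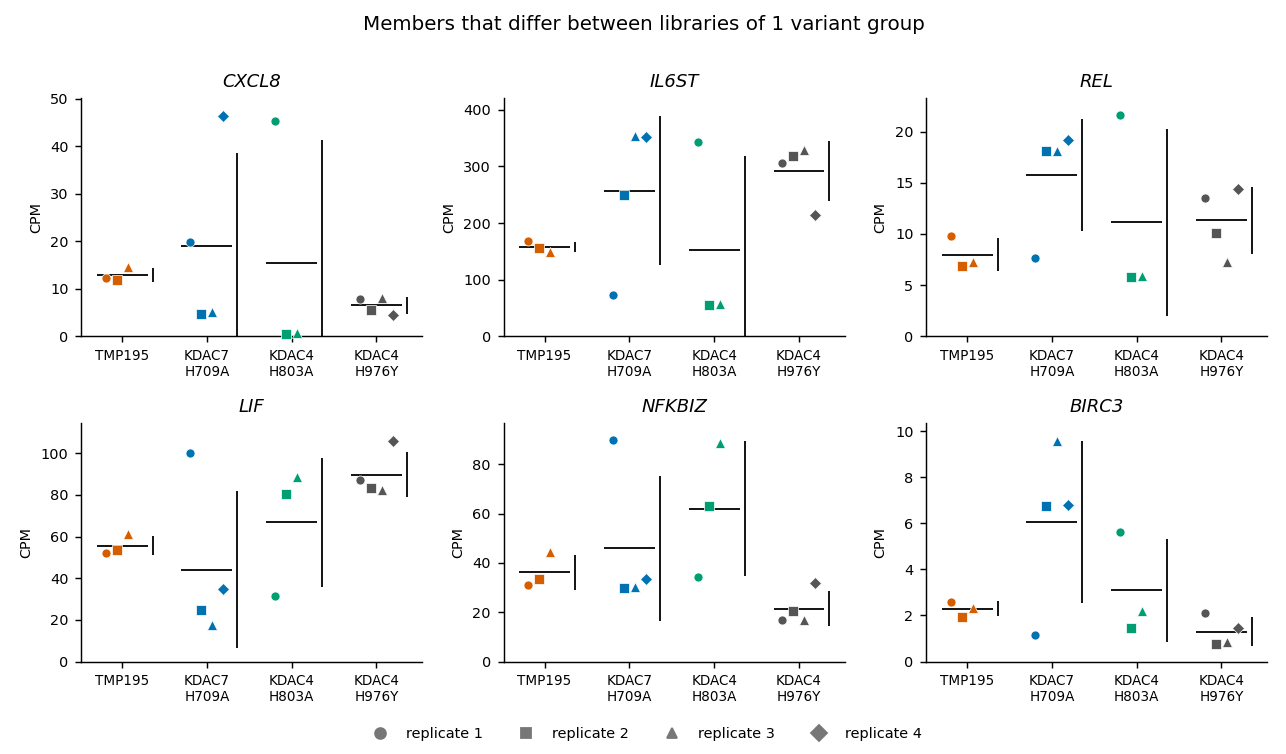
CPM of 6 members (panels) in the 4 groups, 1 point per library with the shape giving the replicate number; horizontal lines are group means and vertical bars 1 SD each way, drawn down to 0 at most. CXCL8, IL6ST, REL and BIRC3 are high and LIF and NFKBIZ low in KDAC4 H803A replicate 1 relative to replicates 2 and 3.

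Transcript GC content ran alongside this split. Across the 29 tested members, which come from the same libraries, the log2 ratio of KDAC4 H803A replicate 1 over replicates 2 and 3 had a Pearson r of -0.69 and a Spearman rho of -0.55 with GC content. For KDAC7 H709A replicate 1 over replicates 2 and 3 the values were 0.33 and 0.22. Correlations over all genes were not computed. Over all tested genes, GC-rich less GC-poor levels (log2) were -1.07 in KDAC4 H803A replicate 1, and 1.34 and 1.27 in replicates 2 and 3. The part of GC-dependent recovery in these differences was not tested.

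**Figure D5:**
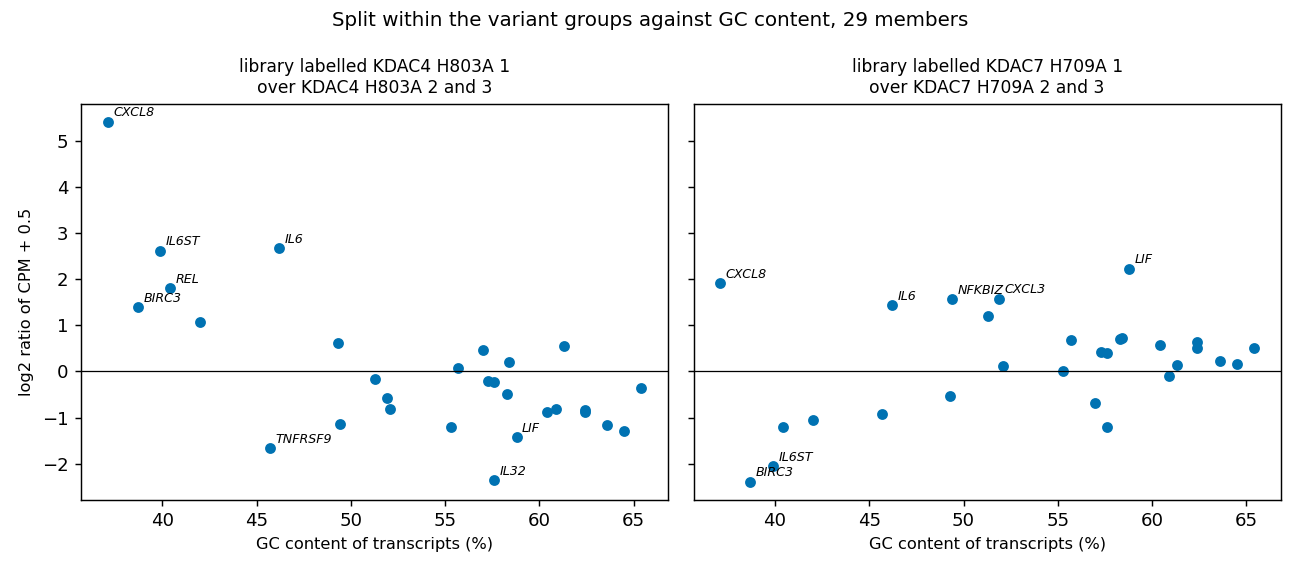
Each point is 1 of the 29 tested members, with transcript GC content (%) across and the log2 ratio of CPM + 0.5 up, for KDAC4 H803A replicate 1 (left) and KDAC7 H709A replicate 1 (right) over replicates 2 and 3 of the same group. On the left GC-poor members such as CXCL8, IL6ST and REL lie above 0 and most GC-rich members below it.

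Other genes of the pathway were read from a list of 82 kinases, adaptors, receptors, ligands, ubiquitin enzymes and further targets, of which 63 were tested. In TMP195 against KDAC4 H976Y 2 were higher and 6 lower, in KDAC7 H709A against KDAC4 H976Y 1 and 6, and in KDAC4 H803A against KDAC4 H976Y 4 and 5. These calls made up 12.7%, 11.1% and 14.3% of the 63, beside 16.5%, 12.5% and 15.1% of all genes, and so were no more frequent than among all genes. In TMP195 against KDAC4 H803A 2 were higher and 3 lower, and in TMP195 against KDAC7 H709A 1 and 3 (7.94% and 6.35%, beside 5.34% and 6.29% of all genes), while KDAC7 H709A against KDAC4 H803A gave 0 by edgeR and by DESeq2, with 1 at an unadjusted edgeR p under 0.05. None of the 11 tested ubiquitin enzymes and inhibitors and none of the 5 tested receptors of the member cytokines was called in these 6 comparisons. Without the library labelled KDAC4 H803A replicate 1 the counts in the same order were 20, 13, 34, 13, 12 and 21, and without KDAC7 H709A replicate 1 they were 17 in TMP195 and 19 in KDAC4 H803A against KDAC4 H976Y and 11 in TMP195 against KDAC7 H709A. Smaller counts came without any 1 TMP195 library, at 5 in TMP195 against KDAC4 H976Y, 2 to 3 against KDAC4 H803A and 1 to 2 against KDAC7 H709A. KDAC4 H803A against KDAC4 H976Y gave 5 without KDAC4 H803A replicate 2 or 3 or KDAC4 H976Y replicate 1 or 3. TMP195 against KDAC4 H803A gave 2 without KDAC4 H803A replicate 2 or 3, and TMP195 against KDAC7 H709A gave 2 without KDAC7 H709A replicate 3. Calls over all genes moved too. Without KDAC4 H803A replicate 1 they made up 27.3%, 18.5%, 45.3%, 14.5%, 14.6% and 25.7% in the same order. Leaving out any 1 library, they ran from 1307 to 5079 genes in the first comparison of this order and from 1129 to 8431 in the third. The swings were therefore not confined to the pathway genes.

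NIK itself, the kinase gene MAP3K14, averaged 105 ± 7.07 CPM (SD, n = 3) with TMP195, 64.2 ± 44.4 CPM (n = 4) in KDAC7 H709A, 80.6 ± 41.3 CPM (n = 3) in KDAC4 H803A and 27.7 ± 5.06 CPM (n = 4) in KDAC4 H976Y cells. It rose over KDAC4 H976Y in TMP195 (log2 fold change 1.92 ± 0.46, edgeR adjusted p = 0.0131) and in KDAC4 H803A (1.54 ± 0.45, adjusted p = 0.0381). In KDAC7 H709A it was not called (1.21 ± 0.43, adjusted p = 0.0828). Results under the alternatives are given for members and not for single pathway genes. MAP3K14 ran from 33.3 to 109 CPM in KDAC4 H803A libraries, which overlapped the 22.5 to 34.6 CPM of KDAC4 H976Y. TMP195 libraries ran from 99.2 to 113 CPM. Receptor genes followed other patterns. TNFRSF11A, the receptor RANK, averaged 17.9 ± 3.13, 9.27 ± 1.08, 9.16 ± 1.21 and 18.8 ± 1.51 CPM in TMP195, KDAC7 H709A, KDAC4 H803A and KDAC4 H976Y cells. It fell by 1.02 ± 0.18 and 1.04 ± 0.19 (log2) in KDAC7 H709A and KDAC4 H803A against KDAC4 H976Y (edgeR adjusted p = 0.00242 and 0.00432), and rose in TMP195 by 0.95 ± 0.19 over KDAC7 H709A and 0.96 ± 0.20 over KDAC4 H803A (adjusted p = 0.00879 and 0.0134). LTBR, the lymphotoxin receptor that feeds the slower route, averaged 108 ± 3.80, 89.1 ± 12.3, 86.9 ± 3.48 and 123 ± 8.29 CPM, and was lower in the same comparisons by 0.46 ± 0.14 and 0.50 ± 0.15 (adjusted p = 0.0415 and 0.0399). TLR3, a sensor of double-stranded RNA, averaged 0.820 ± 0.380, 4.69 ± 2.25, 3.66 ± 3.27 and 6.65 ± 0.545 CPM, and was lower in TMP195 than in KDAC7 H709A (adjusted p = 0.0278) and KDAC4 H976Y cells (adjusted p = 0.00627).

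The target SOD2, mitochondrial superoxide dismutase, was low with TMP195. It averaged 45.1 ± 2.96 CPM with TMP195, against 389 ± 41.9 CPM in KDAC7 H709A, 328 ± 24.9 CPM in KDAC4 H803A and 273 ± 109 CPM in KDAC4 H976Y cells. TMP195 libraries ran from 41.9 to 47.7 CPM and the variants from 209 CPM upwards, and SOD2 fell by 3.11 ± 0.27, 2.86 ± 0.27 and 2.60 ± 0.26 on the log2 scale (edgeR adjusted p = 1.68e-05, 3.41e-05 and 4.36e-05). The chemokine CCL5 was lower with TMP195 than in each variant (adjusted p = 0.0444, 0.0407 and 0.00689 against KDAC7 H709A, KDAC4 H803A and KDAC4 H976Y), at 0.106 ± 0.0731 CPM against 2.44 ± 2.53, 3.00 ± 2.23 and 6.45 ± 4.11 CPM. The log2 fold changes were -4.37 ± 1.18, -4.68 ± 1.22 and -5.78 ± 1.22. CCL5 was near the floor with TMP195 (0.0611 to 0.190 CPM) and reached down to 0.252 CPM in KDAC7 H709A and 0.443 CPM in KDAC4 H803A. IL1A, a ligand that activates NF-kB, averaged 4.10 ± 0.842, 2.20 ± 1.029, 1.82 ± 1.41 and 16.3 ± 3.95 CPM in TMP195, KDAC7 H709A, KDAC4 H803A and KDAC4 H976Y cells, and was lower than in KDAC4 H976Y in each (edgeR adjusted p = 0.0164, 0.00171 and 0.00256). CEBPD, an inflammation-induced transcription factor, averaged 4.97 ± 0.989, 8.06 ± 0.887, 9.93 ± 1.70 and 4.18 ± 0.186 CPM. It rose in KDAC7 H709A and KDAC4 H803A over KDAC4 H976Y (adjusted p = 0.0105 and 0.00343) and was lower in TMP195 than in KDAC4 H803A (adjusted p = 0.027).

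Of 11 mesenchymal markers of the labelled cell type, VIM (2690 to 5636 CPM), FN1 (190 to 2479 CPM), ENG (65.7 to 134 CPM) and CDH2 (42.7 to 170 CPM) were well detected in every library. COL1A1 (0.607 to 14.4 CPM) and PDGFRB (2.09 to 10.4 CPM) were low, and COL1A2, THY1, S100A4, NT5E and COL3A1 were at most 3.08, 1.75, 1.13, 2.60 and 0.0868 CPM. Their summed level was 4575 to 5795 CPM with TMP195, 4021 to 6728 CPM in KDAC7 H709A, 3129.6 to 6839.8 CPM in KDAC4 H803A and 4343 to 6657 CPM in KDAC4 H976Y libraries. Of the 9 tested, 1, 2 and 3 were called in TMP195, KDAC7 H709A and KDAC4 H803A against KDAC4 H976Y, 1 in TMP195 against each of the other variants, and 0 in KDAC7 H709A against KDAC4 H803A. The blood cell marker PTPRC had 0 counts in every library, and CDH1, EPCAM, CD3E and CD14 were at most 0.317 CPM. Of the 9 listed blood and macrophage markers 4 were tested, and 2, 1 and 1 were called in TMP195, KDAC7 H709A and KDAC4 H803A against KDAC4 H976Y. Their summed level was 160 to 208 CPM with TMP195, 97.1 to 322 CPM in KDAC7 H709A, 163 to 257 CPM in KDAC4 H803A and 119 to 202 CPM in KDAC4 H976Y libraries, mostly from LCP1 and CD68. The 7 epithelial markers summed to 301 to 376, 265 to 368, 358 to 494 and 195 to 283 CPM in the same groups. Most of this came from KRT8 (110 to 270 CPM over all libraries) and KRT18 (82.4 to 216 CPM). Of the 3 tested epithelial markers 1 was called in KDAC4 H803A against KDAC4 H976Y. Endothelial markers summed to 93.9 to 104, 80.3 to 154, 111 to 133 and 68.6 to 90.7 CPM, mostly from TIE1 (65.9 to 151 CPM). Of the 3 tested endothelial markers 1 was called in TMP195 against KDAC4 H976Y and against KDAC7 H709A. Neural markers summed to 190 to 221, 146 to 251, 98.7 to 179 and 196 to 291 CPM. These sums came mostly from NCAM1 (49.7 to 165 CPM) and TUBB3 (40.1 to 197 CPM). Of the 4 tested neural markers 1 was called in KDAC7 H709A and 1 in KDAC4 H803A against KDAC4 H976Y. The part of these markers in the results was not tested. With mitochondrial and small noncoding RNA genes kept out of the scaling and the fit, all 27 calls of members remained.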

How the data were processed

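The 38 members, the lists and the tests were chosen with earlier results of these data known. Expected counts for each gene stood in 1 table as the authors deposited it. Per the submitters' processing notes Trimmomatic 0.39, Bowtie2 2.4.5, RSEM 1.3.3, DESeq2 1.38.2 and GRCh38 were used, with no roles given. Per the labels' protocols, ribosomal RNA was depleted from total RNA before paired-end sequencing. RSEM shares reads among matching transcripts, which leaves close copies uncertain. Which annotation release and strand setting were used is not given in the sources used here, and overlapping or antisense genes cannot be told apart. The deposited column of KDAC4 H803A replicate 4 held effective lengths: 7363 of 7608 genes with a single transcript (96.8%) equalled transcript length less 248.86 bases within 0.02 bases. It served for levels per kilobase and was kept out of all fits, which leaves 14 libraries of 15 samples. No other column was left unused (0 unmapped).

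Expected counts were rounded, filtered with filterByExpr (minimum count 10, minimum total 15; 17780 genes kept), scaled by TMM and tested with edgeR 4.0.16 (quasi-likelihood F test, limma 3.58.1, R 4.3.3) in 1 fit of 4 groups without covariates, for 6 pairwise comparisons. Log2 fold changes are first minus second group with SE from the F statistic. P-values were adjusted by Benjamini and Hochberg's method across the 17780 genes. DESeq2 1.42.0 was an alternative. CPM are counts per 1000000 of TMM-scaled library size. Gene IDs matched GENCODE v29 (GRCh38) for 57055 of 60675 genes. Limits set by a count of 0 use 3 counts per library and cover counting error only. Every member called in a comparison was given in full, others by range or mean, members below the filter by counts, and pathway genes were named when called in at least 2 comparisons (at most 12, smallest adjusted p first); IL1B and PTGS2 were left to the counts. The promoter stretches shown were chosen after values were seen; only NFKBIA is shown over its whole upstream window.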

Additional observations from a re-analysis of the deposited data

Results flagged for a closer look

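In the groups of 4 libraries, 58 sets of values were screened for a single library far from the other 3 by Dixon's ratio, and 8 were flagged; chance flags about 1 in 20 groups. In KDAC7 H709A, replicate 1 was highest for NFKBIZ (90.1 CPM, against 29.8 to 33.5 CPM in the others), BCL3 (17.6 CPM, against 11.8 to 12.5 CPM) and IL11 (6.95 CPM, against 4.61 to 4.77 CPM), and lowest for REL (7.63 CPM, against 18.1 to 19.2 CPM). Replicate 4 of that group was lowest for TRAF1 (2.73 CPM, against 5.88 to 6.51 CPM). In KDAC4 H976Y, replicate 4, the library with the fewest counts, was lowest for NFKBIA (14.6 CPM, against 18.3 to 18.7 CPM) and TNIP1 (74.8 CPM, against 88.0 to 89.9 CPM), and replicate 1 was lowest for CXCL3 (1.41 CPM, against 2.38 to 2.55 CPM).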

How the results depend on the processing

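Of 27 calls of members, 11 held under all 24 alternatives and 16 were lost under at least 1, of which 14 were lost when a single library was left out; 0 changed direction. Calls lost numbered 12 under the replicate block, 8 with no filter on low counts and 8 in fits of 2 groups. The losses named above for single members are not complete lists, and those under the replicate block are not named there. The ranges of adjusted p given there cover all 24 alternatives. GC and length offsets lost 6, and 0 were lost under DESeq2 or without the 3 libraries set apart. Except where a value shows otherwise, the cause was not tested. Depth limits the members with few counts, such as ICAM1 and IL6. Comparisons are listed below in this order: the first is KDAC4 H803A and the second KDAC7 H709A, each against KDAC4 H976Y; the third sets KDAC7 H709A against KDAC4 H803A; the last 3 set TMP195 against KDAC4 H803A, KDAC4 H976Y and KDAC7 H709A, and counts not listed stayed within 1.5 times. Leaving out 1 library, all genes called ran from 1129 to 8431, 1215 to 3440, 0 to 4788, 436 to 2695, 1307 to 5079 and 422 to 2755. Members called ran from 4 to 16, 6 to 8, 0 to 8, 0 to 6, 3 to 9 and 0 to 4, and pathway genes called from 5 to 34, 6 to 13, 0 to 21, 2 to 13, 5 to 20 and 1 to 12. Without the 3 libraries together, all genes called were 11848, 5829, 11044, 8792, 9895 and 8392, members 24, 15, 20, 17, 18 and 13, and pathway genes 49, 26, 48, 37, 33 and 45. DESeq2 gave 4102, 92, 1870, 4457 and 2366 genes (all but the second comparison), 4 members in the sixth, and 16, 15 and 8 pathway genes in the first, the fifth and the sixth. GC and length offsets gave 14, 13, 8, 16 and 9 pathway genes (all but the third), and moved the log2 fold changes of RELB, TRAF3 and IL11 in the first to 0.63, 0.47 and -1.42 and those of CSF1 and NFKBIE in the fifth to 0.51 and 0.56. ICAM1 in the sixth was 5.93 without the 3 libraries. With no filter, the third gave 14 genes, the fourth 1 member and 3 pathway genes, and the sixth 1 member. In fits of 2 groups the first gave 1634 genes and 5 members, the fourth 366 genes, 0 members and 1 pathway gene, the fifth 9576 genes, 20 members and 35 pathway genes, and the sixth 0 members. Replicate numbers did not pair the libraries: correlations of the deviations of same-numbered libraries ran from -0.659 to 0.325, and in no comparison was every one over 0.1. The replicate block gave 1230 genes and 4 members in the first, 1322 genes in the second, 563 genes, 1 member and 3 pathway genes in the fourth, 1556 genes, 4 members and 4 pathway genes in the fifth, and 453 genes, 0 members and 2 pathway genes in the sixth. The replicate block with GC and length offsets gave 4 members in the first, 0 in the fourth, and 602 genes and 1 member in the sixth. Members with GGAATTTCC numbered 13 in place of 30 with the broad motif.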
